A study of Mus musculus with 7 samples.

Results

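Txnip, the 4 alpha-arrestin genes Arrdc1 to Arrdc4, the transcription factor genes Mlxip and Mlx and the glucose transporter genes Slc2a1 and Slc2a3 are described here in mouse hematopoietic stem cells (HSCs) with and without deletion of Fth1, the gene of ferritin heavy chain. These 9 genes were found by symbol among the 55855 gene identifiers of the table. They were selected on earlier results of the same libraries, because Txnip had passed the threshold between the groups. The differences of the 9 genes between the groups are therefore given as a description. No p value or threshold printed for them is used as support. Bulk RNA of bone marrow HSCs from mice aged 2 months was sequenced in 3 libraries of genotype Fth1fl/fl, called control, and 4 libraries of genotype Fth1△/△, called Fth1-deleted. The series text describes a conditional deletion in the hematopoietic system, and the control cells carry the floxed allele. The driver of the deletion, the sort markers, the sex of the mice and whether each library came from its own mouse are not given in the sources used here. Adjusted p values printed here therefore set a difference against the spread between libraries, which may be technical.

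Alpha-arrestins are adaptor proteins that bring NEDD4-family ubiquitin ligases to membrane proteins and so direct these into endosomes. Txnip and Arrdc4 both reduce glucose uptake, and Txnip also binds and inhibits thioredoxin. Their transcription follows sugar phosphates: MondoA, the product of Mlxip, pairs with Mlx and binds carbohydrate response elements, so that glucose-6-phosphate raises the genes that hold glucose out. Txnip is also known as a gene that keeps HSCs quiescent and limits their oxidative stress.

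Counted reads ranged from 12058392 to 15453168 per library. Levels are FPKM, scaled for transcript length and for the number of counted reads. Fth1, the deleted gene, had an FPKM of 552, 659 and 638 in control 1 to 3 and of 202, 333, 358 and 114 in Fth1-deleted 1 to 4, so RNA of the gene was still counted in every deleted library. Some libraries stood apart in ways the genotype labels do not give. Nuclear ribosomal RNA took 0.0253% and 0.0140% of the reads in control 1 and control 3 but 0.984% to 1.34% in the other 5 libraries. The mitochondrial mt-Co2 was at 2468 in control 1 and 1750 in Fth1-deleted 3 and at 60.8 to 77.2 elsewhere. Y-linked genes had 0 reads in control 1, control 3 and Fth1-deleted 4 and took 116 to 222 RPM (reads scaled to a common depth) in the other 4 libraries. All 10 HSC markers on the list were present, and 8 of the 10 had a log2 difference below 0, beside 51.3% of all tested genes. Their median log2 difference, Fth1-deleted minus control, was -0.68. In the fit described below 1 of the 10 passed the threshold, beside 0.0574% of all tested genes. Their summed FPKM was 897 to 1469 in control and 606 to 822 in the deleted libraries, without overlap. All 8 macrophage and monocyte markers were measured above 0 somewhere. Their sum was 25.4 to 37.5 in control and 46.3 to 154 in the deleted libraries. Adgre1 was at 0 in every control library and in Fth1-deleted 4. Of the 8, 0 had a log2 difference below 0, with a median of 1.67, and 0 passed the threshold. The sums overlapped between the groups for the 8 neutrophil and myeloid progenitor markers (156 to 353 against 173 to 564). Elane, Ctsg and Ltf were at 0 in control, but Elane and Ctsg were also at 0 in Fth1-deleted 1 and 2. Ltf was above 0 in Fth1-deleted 2 alone. Of the 7 of these markers that were tested, 1 had a log2 difference below 0, and the median was 2.25. The sums overlapped too for the 7 erythroid markers (54.3 to 330 against 112 to 446). Of these 7, 1 had a difference below 0, and the median was 0.35. Overlap was also found for the 7 T cell markers (18.3 to 41.0 against 25.4 to 50.4, with Cd3e at 0 everywhere), the 5 megakaryocyte markers (540 to 787 against 786 to 937) and the 4 endothelial markers (20.5 to 47.0 against 33.9 to 47.6). No tested marker of these lists passed the threshold. The part of other cell types in the differences below was not tested, and in bulk RNA fewer cells of a type and less RNA per cell cannot be told apart.

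Txnip (ENSMUSG00000038393, GRCm38 chr3:96557957-96561883, plus strand) was the most abundant of the 9 genes and was lower in every Fth1-deleted library. Its FPKM was 680, 943 and 904 in control 1 to 3 and 391, 385, 402 and 381 in Fth1-deleted 1 to 4. The groups did not overlap, and the 4 deleted libraries lay far closer together than the 3 control libraries. The mean was 842 ± 142 (SD, n = 3) in control and 390 ± 8.93 (SD, n = 4) in the deleted libraries, which is 46.3% of the control mean. The difference, Fth1-deleted minus control, was -1.10 on the log2(FPKM + 1) scale, with a standard error (SE) of 0.16. Txnip ranked 90th among all genes by mean FPKM in control cells and 233rd in Fth1-deleted cells. It took 1086 ± 183 RPM in control and 502 ± 11.5 in the deleted libraries, so each of its values rests on 6627 to 18287 reads. In limma-trend over the 13948 genes whose FPKM averaged 1 or more, Txnip was 1 of 8 genes past the Benjamini-Hochberg threshold of 0.05, or 0.0574% of those tested, and 1 of 4 that were lower, or 0.0287%. Its adjusted p of 0.0318 is the value behind the choice of these genes and supports nothing further here.

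The agreement between the 4 Fth1-deleted libraries was closer for Txnip than for nearly all genes. Its coefficient of variation there was 2.29%, against a median of 26.3% over the 10475 genes with more than 100 reads on average, of which 0.124% had a smaller one. Counting alone would give 1.19%. Txnip was chosen for passing a threshold that favours genes with little spread within the groups. The compared genes start at 100 reads, while Txnip had 6627 to 7787 in these libraries, so the comparison is a description. In the control libraries the coefficient for Txnip was 16.8%, against a median of 30.9%, and control 1, with its high mt-Co2 and low ribosomal RNA, was the lowest of the 3. Values within the subsets of libraries that stood apart are given as a description. No deleted library reached any control library, so any subset holding both groups had to show the difference. Whether these traits of the libraries play a part in it was not tested. Among libraries with Y-linked reads, control 2 was at 943 and the 3 Fth1-deleted libraries averaged 393, and among those without, the 2 control libraries averaged 792 and Fth1-deleted 4 was at 381. Among the 5 libraries with high ribosomal RNA, control 2 at 943 stood against a mean of 390. Between the 2 libraries with high mt-Co2 the values were 680 and 402, and with low mt-Co2 the means were 923 and 386.

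The antisense gene Gm15441 (chr3:96555765-96566801, minus strand) spans the whole of Txnip on the other strand. It had 43 reads in control 1, an FPKM of 2.68, and 41 reads in Fth1-deleted 2, an FPKM of 2.60. The other 5 libraries had 0 reads, which allows up to 3 reads or an FPKM of up to 0.215. Whether the counting used strand is not given in the sources used here, so reads of the 2 genes may not have been separated. What this does to the Txnip values was not tested.

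Arrdc4 (ENSMUSG00000042659, chr7:68736995-68749241, minus strand), like Txnip a known target of MondoA, was the other member that was lower in every Fth1-deleted library. Its FPKM was 30.8, 40.6 and 44.0 in control 1 to 3 and 17.2, 15.5, 15.5 and 12.6 in Fth1-deleted 1 to 4. The highest deleted library, at 17.2, was well below the lowest control library, at 30.8. The mean was 38.5 ± 6.84 (SD, n = 3) against 15.2 ± 1.92 (SD, n = 4), or 39.5% of control, a log2 difference of -1.28 (SE 0.29). Arrdc4 rests on 469 to 1539 reads per library. Its ratio of means, 2.53, was above the 2.16 of Txnip, but its SE was also larger, and it did not pass the threshold over all genes. Groups that do not overlap in the lower direction were found for 5.55% of the tested genes. Like Txnip, Arrdc4 was lower within each subset, which follows from groups that do not overlap. Examples are 40.6 against a mean of 16.1 among libraries with Y-linked reads and a mean of 37.4 against 12.6 among those without.

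**Figure D1:**
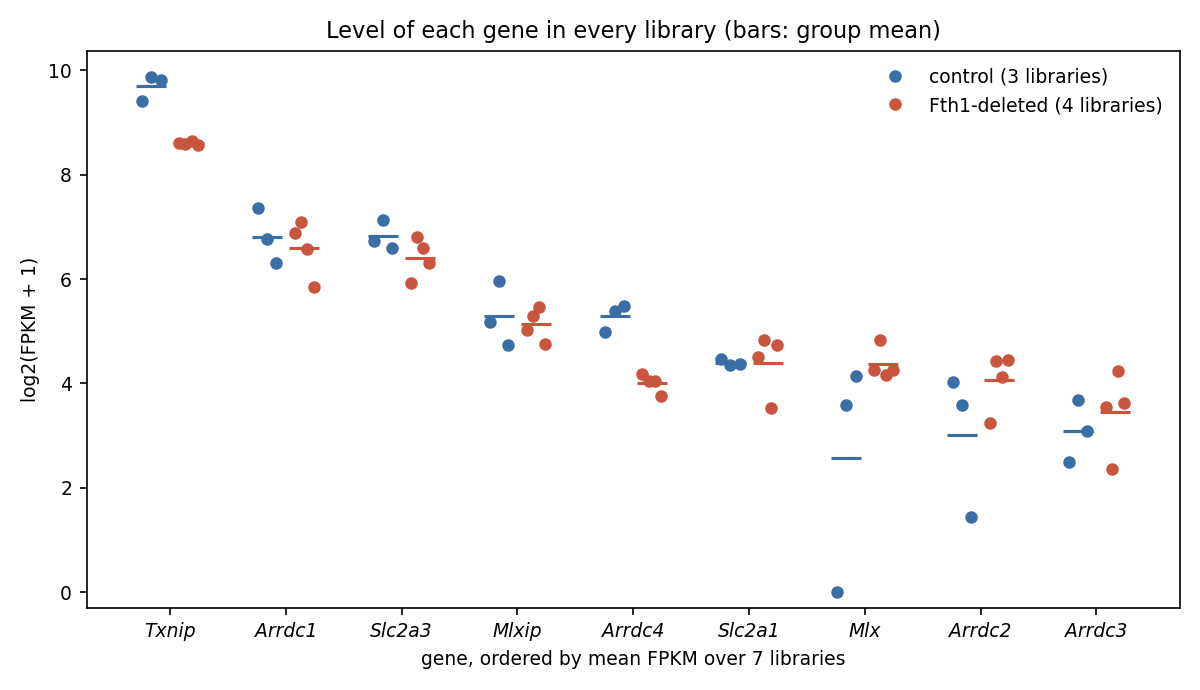
Level of the 9 genes as log2(FPKM + 1), with 1 point per library, control in blue (n = 3) and Fth1-deleted in red (n = 4), and bars at the group means. The deleted libraries lie below all control libraries for Txnip and Arrdc4 and above them for Mlx, whose control 1 is at 0, and the other 6 genes overlap.

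The 250 bases before the RefSeq start site of Txnip and Arrdc4 (GRCm38.p6) are shown because these genes were the pair that was low together and because MondoA and Mlx are known to act at such promoters. Both are written 5′ to 3′ on the gene's own strand, Txnip from chr3:96557707-96557956 on the plus strand and Arrdc4 from chr7:68749239-68749488 on the minus strand. Capitals mark the motif matches named next.
Txnip: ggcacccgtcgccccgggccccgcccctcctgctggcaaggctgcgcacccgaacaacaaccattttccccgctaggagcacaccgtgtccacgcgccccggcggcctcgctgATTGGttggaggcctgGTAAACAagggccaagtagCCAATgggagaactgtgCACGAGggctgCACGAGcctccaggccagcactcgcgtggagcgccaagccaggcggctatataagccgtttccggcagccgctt
Arrdc4: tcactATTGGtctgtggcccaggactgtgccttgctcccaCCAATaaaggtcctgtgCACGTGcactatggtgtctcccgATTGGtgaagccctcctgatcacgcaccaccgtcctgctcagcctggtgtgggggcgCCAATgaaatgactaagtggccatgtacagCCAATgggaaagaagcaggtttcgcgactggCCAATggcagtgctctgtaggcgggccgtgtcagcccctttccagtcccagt
The 2 runs of CACGAG in Txnip match a carbohydrate response element, searched as CACGNG, then 5 bases of any kind, then CACGNG, on both strands. This spelling, with both runs in the same direction, is the arrangement that Txnip holds. No other arrangement was searched, so genes with an element spelled otherwise were not counted. The element lies 85 to 69 bases before the start, at chr3:96557872-96557888. It was found in 16 of 32544 RefSeq start windows of 250 bases before and 50 after the start (0.0492%), and among the 8 of the 9 genes that have a window, in Txnip alone. Arrdc4 has no match to this spelling in its window. It has an E-box, CACGTG, starting 193 bases before the start, and Mlx has one starting 40 bases before its own; 7.17% of the windows hold one. An E-box can be part of a carbohydrate response element by this spelling, but neither of these is. The CCAAT box, CCAAT or its reverse complement, occurred at 2 places in Txnip and 6 in Arrdc4, and 37.4% of windows hold it. A forkhead site, TGTTTAC on either strand, lies 121 to 115 bases before the start of Txnip, and 3.66% of windows hold one. The CCAAT and forkhead motifs were picked after the Txnip window had been seen. Matches describe the letters, and binding was not measured.

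**Figure D2:**
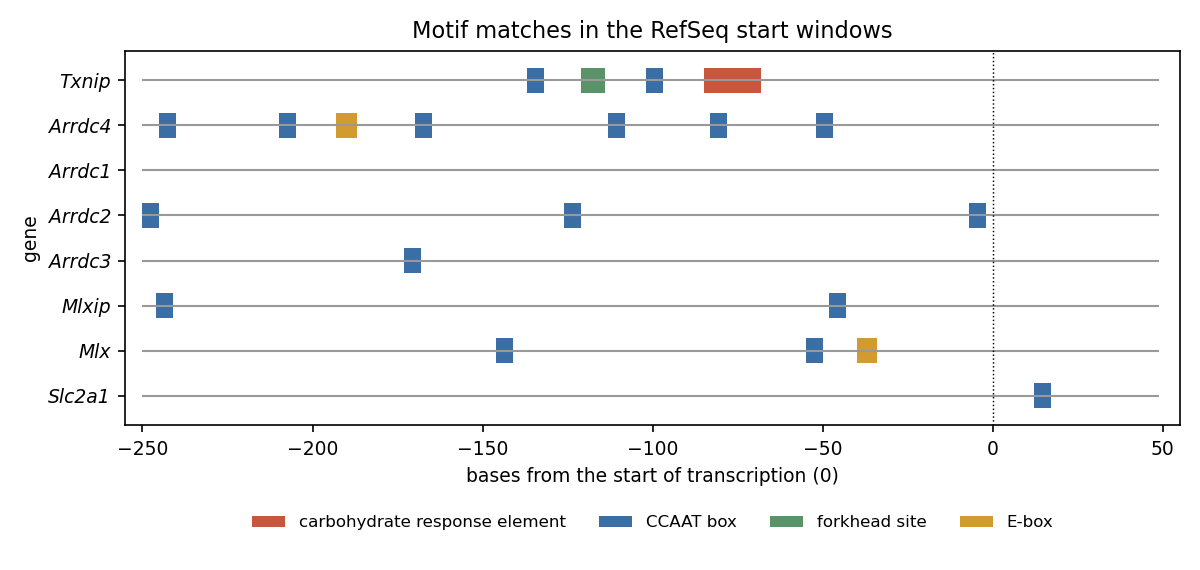
Motif matches in the first RefSeq start window of the 8 genes that have one, by distance in bases from the start of transcription, drawn to scale. In the spelling searched, the carbohydrate response element is found only in Txnip. The E-box is found in Arrdc4 and Mlx, while CCAAT boxes are spread over 7 of the 8 genes.

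The profile of Arrdc4 over the 7 libraries was also the nearest to that of Txnip. Likeness was measured as the root mean square difference of the 2 genes' log2(FPKM + 1) values after each gene's mean was removed. The 9376 other genes compared were annotated as protein-coding and averaged an FPKM of 5 or more, with unnamed gene models left out. Arrdc4 came first at 0.146, and Txnip was in turn the nearest gene to Arrdc4. Arrdc4 was followed by Zbtb39, a zinc finger gene (0.164), and Kantr (0.166), known as a long noncoding RNA but annotated here as protein-coding. Next came App, the amyloid precursor (0.169), and Zg16, a secretory granule lectin (0.169). Both a pseudocount of 0.1 and one of 5 put Arrdc4 in place 2, and leaving out 1 library put it in places 1 to 9. The step between the groups enters this measure, and it also guided the choice of genes. On the deviations from the group means alone Arrdc4 was in place 106, within the control libraries alone in place 216 and within the Fth1-deleted libraries alone in place 1041. The ratio of Txnip to Arrdc4 FPKM was 22.1, 23.2 and 20.5 in control and 22.7, 24.9, 25.9 and 30.3 in the deleted libraries, so the ranges overlapped.

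**Figure D3:**
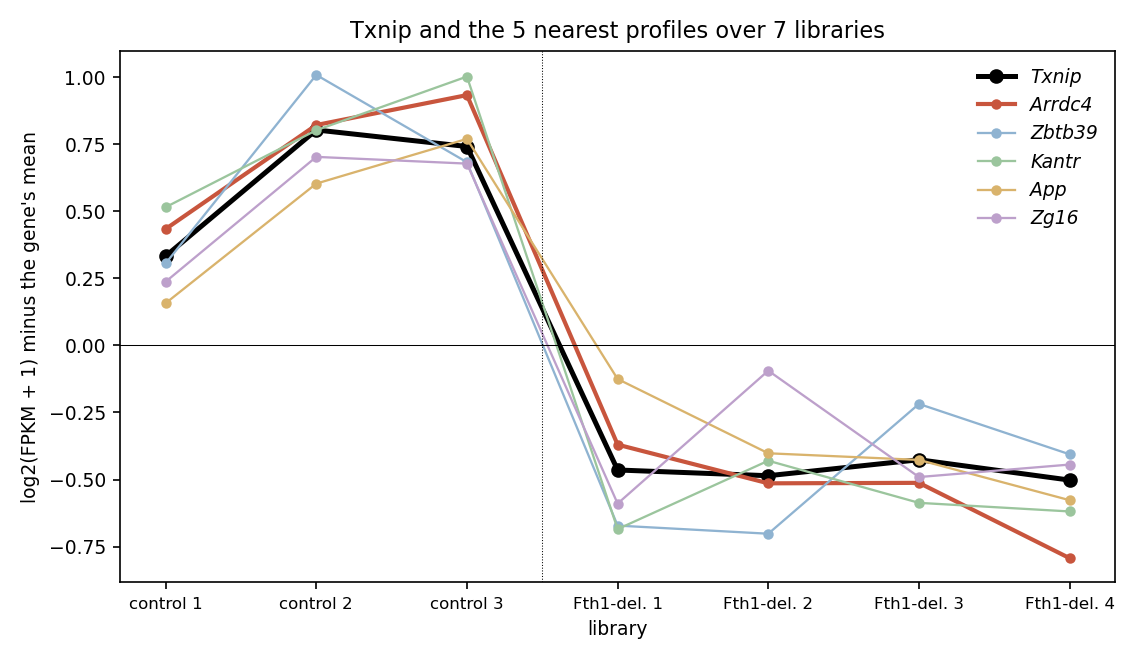
log2(FPKM + 1) minus each gene's own mean, for Txnip in black and the 5 nearest profiles, over control 1 to 3 and Fth1-deleted 1 to 4. All 6 lines step down at the group boundary, and from control 2 to control 3 Txnip is lower while Arrdc4, in red, is higher.

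For Arrdc1, Arrdc2 and Arrdc3 the groups overlapped. Arrdc1 (ENSMUSG00000026972, chr2:24925352-24935252, minus strand), which works in the budding of vesicles from the cell surface, had an FPKM of 163, 108 and 78.6 in control and 117, 136, 94.0 and 56.5 in the deleted libraries. The highest library was a control and the lowest a deleted one, with a log2 difference of -0.22 (SE 0.32). Its sign turned in 5 of 29 alternative settings, among them without control 1 (0.05) and without Fth1-deleted 4 (0.04), and it was -0.47 without control 3. Arrdc2 (ENSMUSG00000002910, chr8:70835129-70839720, minus strand), a less studied member, was at 15.2, 11.1 and 1.72 in control and at 8.52, 20.6, 16.4 and 20.9 in the deleted libraries. Control 3, with 24 reads, was low, and the difference of 1.05 (SE 0.60) was 0.26 without it. Arrdc3 (ENSMUSG00000074794, chr13:80883384-80896042, plus strand), which draws the beta-adrenergic receptor into endosomes, was at 4.64, 11.8 and 7.50 against 10.7, 4.11, 18.0 and 11.4. Its difference of 0.36 (SE 0.53) was smaller than its SE. It was 0.06 without control 1 and 0.09 without Fth1-deleted 3, and its sign turned in 2 of 29 settings. Arrdc5 had no counted read in any library. Txnip made up most of the reads of this family: 82.1 ± 3.99% (SD, n = 3) of the reads of Txnip and Arrdc1 to Arrdc4 in control and 74.4 ± 2.97% (SD, n = 4) in the deleted libraries, with ranges of 77.6% to 85.3% and 71.8% to 78.7%. The summed FPKM of Arrdc1 to Arrdc3 was 134 ± 47.4 in control and 129 ± 30.0 in the deleted libraries.

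Of the transcription factors upstream, Mlxip overlapped between the groups and Mlx was higher in the deleted libraries. Mlxip (ENSMUSG00000038342, chr5:123394798-123457932, plus strand) encodes MondoA and was at 35.2, 61.3 and 25.6 in control and at 31.6, 38.1, 43.0 and 25.9 in the deleted libraries. The deleted libraries lay within the control range, with a difference of -0.16 (SE 0.32). Without control 2, the highest library, the difference was 0.18. Mlx (ENSMUSG00000017801, chr11:101087277-101092207, plus strand), the partner of MondoA, was at 0, 11.0 and 16.8 in control and at 18.2, 27.5, 17.0 and 18.1 in the deleted libraries. Every deleted library was above every control library, as for 4.1% of the tested genes, but the lowest deleted value, 17.0, was next to the highest control value, 16.8. The log2 difference was 1.80 (SE 0.80) and rested on control 1, which had 0 Mlx reads, allowing an FPKM of up to 0.192. Without that library the difference was 0.52. Mlx overlaps Psmc3ip on the opposite strand, and Psmc3ip was at 10.1 to 20.9 in control and 17.7 to 29.8 in the deleted libraries. Of 4 further genes of this network, Mlxipl, encoding the liver-type relative ChREBP, had no read in any library. The other 3 encode factors that pair with Max or Mlx, and none passed the threshold in either direction, with a median log2 difference of -0.28. Mxd4 had a log2 difference of -0.28 (SE 0.40, adjusted p = 0.838) and Mnt one of -0.30 (SE 0.28, adjusted p = 0.748).

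Of the 2 glucose transporters, Slc2a1 (ENSMUSG00000028645, chr4:119108711-119137983, plus strand) encodes GLUT1, which Txnip is known to remove from the surface. Its means were near equal. It was at 21.1, 19.5 and 19.6 in control and at 21.7, 27.5, 10.6 and 25.6 in the deleted libraries. The control libraries were close together and the deleted libraries lay on both sides of them. The log2 difference was 0.00 (SE 0.37), with the opposite sign in 13 of the 29 alternative settings. Slc2a3 (ENSMUSG00000003153, chr6:122727809-122801640, minus strand) encodes the high-affinity GLUT3. It was more abundant, at 106, 139 and 96.4 in control and 59.6, 112, 95.5 and 78.5 in the deleted libraries. All Fth1-deleted libraries except Fth1-deleted 2 were below all controls, with a difference of -0.41 (SE 0.24). The processed pseudogene Gm4482 lies within Slc2a3 on the same strand and had an FPKM of 0.194 to 17.0 in control and 0.364 to 5.94 in deleted libraries, so some reads of the pair may have been split. The sum of both transporters was 134 ± 21.9 against 108 ± 23.8, with overlapping ranges. The ratio of Slc2a3 to Slc2a1 ran from 4.91 to 7.10 in control and from 2.74 to 9.02 in Fth1-deleted libraries. Of 10 other Slc2a genes, 6 had no read in any library and 3 were tested. None of these passed the threshold in either direction, and their median was -0.83. Slc2a9, a urate and hexose carrier, had a difference of -0.83 (SE 0.48, adjusted p = 0.614), and Slc2a8, an intracellular transporter, one of -0.72 (SE 0.64, adjusted p = 0.733).

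Across the 9 genes, all of which passed the filter on low values, the median log2 difference was -0.16, with 5 below 0, beside a median of -0.02 over all tested genes, 51.3% of which were below 0. In this fit 1 of the 9 passed the threshold, in the lower direction, and 8 did not pass. Since the list was chosen with these results known, nothing is read from those counts. By mean FPKM over all 7 libraries the order was Txnip, Arrdc1, Slc2a3, Mlxip, Arrdc4, Slc2a1, Mlx, Arrdc2 and Arrdc3. Txnip was above Arrdc1 in 7 of 7 libraries, by 476 ± 257 FPKM (SD), and the ranges of the pair were apart. Slc2a3 was above Mlxip in 7 of 7, by 60.7 ± 17.5. All other neighbours in the order differed on average by less than the SD of their difference, such as Arrdc1 and Slc2a3 at 9.64 ± 36.9. Calculated on the length of all merged exons instead, the order changed only in that Mlx and Slc2a1 traded places.

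**Figure D4:**
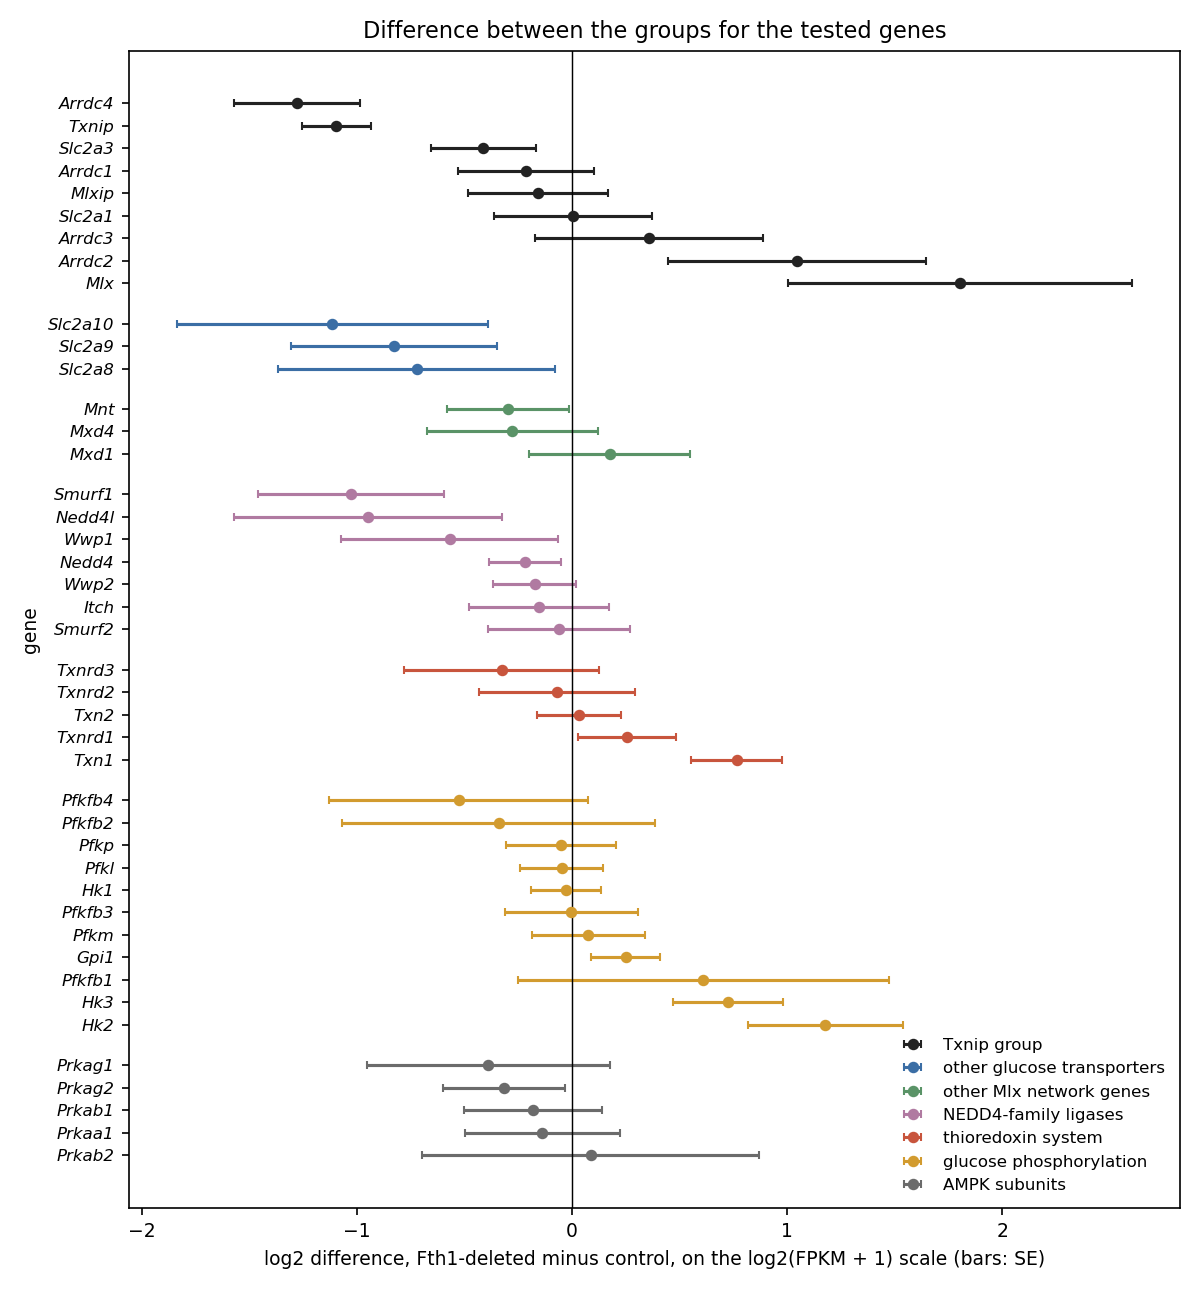
log2 difference, Fth1-deleted minus control, with its SE, for the 9 genes in black and the tested genes of the related lists in colour. Txnip and Arrdc4 are at -1.10 and -1.28 and Mlx at 1.80, while Slc2a1 is at 0.00 and takes either sign across the settings.

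The genes these 9 work with were counted from lists of known partners. None of the genes on these lists was past the threshold in limma-trend or in limma-voom on recovered reads. In limma-trend 0.0574% of all tested genes were past it. At an unadjusted p under 0.05 limma-trend gave 1 ligase gene, 1 gene of the thioredoxin system, 2 of glucose phosphorylation and 0 of the other lists, beside 9.83% of all tested genes. Among the NEDD4-family ligases, which alpha-arrestins recruit, 7 of 9 were tested and none passed the threshold. All 7 differences were below 0, with a median of -0.22. The most abundant were Nedd4, at 308 to 332 FPKM in control and 238 to 334 in the deleted libraries (-0.22, SE 0.17, adjusted p = 0.698), and Wwp2 (-0.17, SE 0.19, adjusted p = 0.789). Smurf1 and Wwp1, named after their values were seen, were lower without overlap, as were 5.55% of the tested genes. Smurf1 had a difference of -1.03 (SE 0.43, adjusted p = 0.476). Wwp1 had one of -0.57 (SE 0.50, adjusted p = 0.731), which was -0.26 without control 3. Of the 7 AMPK subunit genes, whose kinase marks Txnip protein for removal, 5 were tested and none passed the threshold. The median was -0.18, with Prkab1 at -0.18 (SE 0.32, adjusted p = 0.871) and Prkag2 at -0.32 (SE 0.28, adjusted p = 0.733).

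The thioredoxin system is the redox target of Txnip, and none of its 5 genes, all tested, passed the threshold in either direction. Txn1, the cytosolic thioredoxin that Txnip binds, was at 180, 119 and 147 FPKM in control and at 249, 201, 237 and 329 in the deleted libraries. Every deleted library was above every control library, as for 4.1% of the tested genes. The difference of 0.77 (SE 0.21) had an adjusted p of 0.284. With Txnip low in the same libraries, the ratio of Txn1 to Txnip RNA was 0.126 to 0.265 in control and 0.521 to 0.862 in the deleted libraries, given as a description since Txnip is part of it. Txn2, the mitochondrial thioredoxin, was near equal, at 0.03 (SE 0.20, adjusted p = 0.966), and was below 0 in 11 of 29 alternative settings. The list's median was 0.03.

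Glucose-6-phosphate, the signal that MondoA reads, is made by hexokinases. Of 13 genes on the list of glucose phosphorylation, which also holds Gpi1, the Pfk genes and the Pfkfb genes, 11 were tested. None passed the threshold. Hk1 was by far the main hexokinase, at 375 to 541 FPKM in control and 428 to 454 in the deleted libraries (-0.03, SE 0.16, adjusted p = 0.966), and its sign changed in 5 of the 29 settings. Gpi1, encoding the next enzyme, had a difference of 0.25 (SE 0.16, adjusted p = 0.644). Hk2 and Hk3, named after their values were seen, were both higher without overlap, as were 4.1% of the tested genes. Hk2 was at 11.0, 14.6 and 17.1 in control and at 18.4, 43.3, 33.2 and 43.9 in the deleted libraries (1.18, SE 0.36, adjusted p = 0.339). Hk3, the myeloid form, was at 19.8 to 25.3 in control and 34.6 to 43.1 in the deleted libraries (0.72, SE 0.26, adjusted p = 0.409), beside the higher sum of macrophage and monocyte markers, whose part in it was not tested. The list's median was -0.0040.

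**Figure D5:**
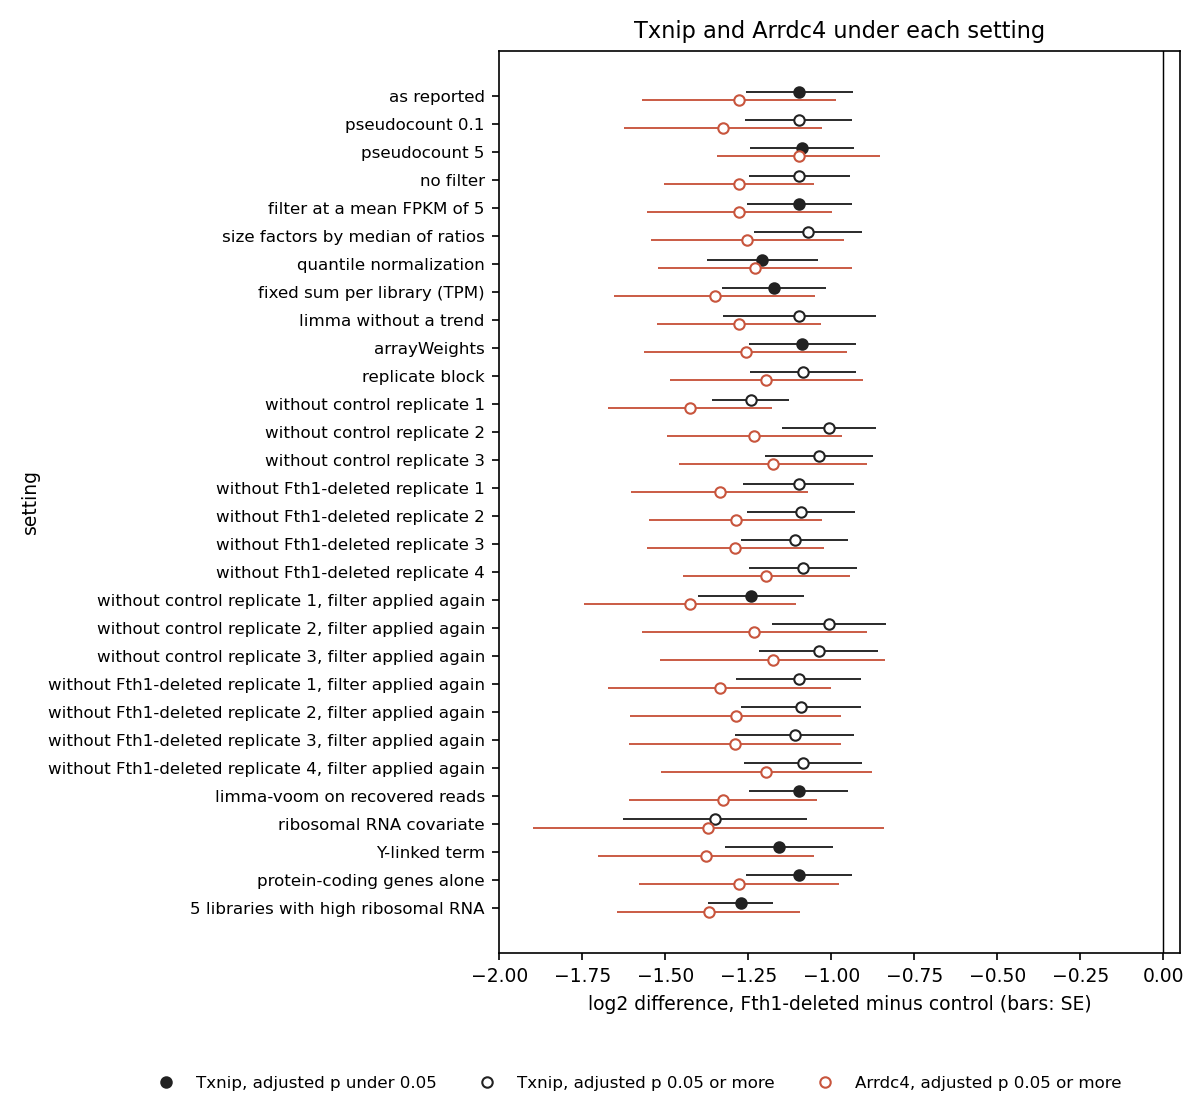
log2 difference, Fth1-deleted minus control, with its SE, for Txnip in black and Arrdc4 in red under the reported setting and 29 alternatives, filled where the adjusted p was under 0.05. Txnip runs from -1.35 to -1.01 and Arrdc4 from -1.43 to -1.10, and Txnip is filled in 10 of the 29 alternatives and Arrdc4 in none.

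The size of the Txnip difference moved little between settings, from -1.35 to -1.01, but its place past the threshold did not hold throughout. It was past the threshold in 10 of 29 alternatives, with adjusted p values of 0.00986 to 0.684. Leaving out any 1 of the 7 libraries with the tested genes unchanged ended the call, with adjusted p values of 0.1004 (without control 1) to 0.281 (without Fth1-deleted 3). These fits called 0 to 4 of all tested genes, against 8 with every library, so the loss was not particular to Txnip. With the filter applied again, the Txnip call held without control 1 (adjusted p = 0.0271).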

How the data were processed

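HSC libraries (3 control, 4 Fth1-deleted) were compared. Alignment by the authors was to GRCm38 with HISAT2 2.0.4 and counting with HTSeq 0.9.1, per the series text and the submitters' processing notes. The table was deposited as FPKM, derived by the authors from gene length and counted reads, with no further scaling stated. The annotation release is not given in the sources used here.

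Identifiers were matched to GENCODE M21, 55480 of 55855. FPKM times mean transcript length fell on multiples of 1 step per library, so whole reads were recovered within 0.05 reads for 98.9% to 99.5% of values under 50 reads. A 1-read gene of 1 kb has an FPKM of 0.0647 to 0.0829, and floors of 3 reads cover counting error only. The 13948 genes averaging an FPKM of 1 or more were fitted as log2(FPKM + 1) by limma-trend, without covariates and two-sided, in limma 3.58.1 (R 4.3.3), with a Benjamini-Hochberg threshold of 0.05. The fit was tested on simulated data.

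The members and lists were chosen with earlier results of these data known. Named were all 9 genes, per list those past the threshold and the 2 tested with the highest mean FPKM, and the 5 profiles nearest to Txnip. Of the settings tried, 17 were planned and 12 were chosen after seeing the data. BLAST 2.17.0 found no other transcript of 95% identity over 50% of any of the 9 genes' transcripts. Promoters are from RefSeq (GRCm38.p6), which matched 8 of the 9 genes. The result of 1 marker list is not reported here.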

Additional observations from a re-analysis of the deposited data

Results flagged for a closer look

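Mlx in Fth1-deleted 2 had an FPKM of 27.5, while the other 3 Fth1-deleted libraries were at 17.0 to 18.2, so its gap to the nearest library was 0.879 of the group's whole range. The check was made for the 4 Fth1-deleted libraries in each of the 9 genes, and chance alone flags about 1 in 20 groups.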

How the results depend on the processing

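Txnip was below 0 in all 29 alternatives. Its call was lost with a pseudocount of 0.1 (-1.10), without a filter (-1.10), with size factors by median of ratios (-1.07), in limma without a trend (-1.10), with the ribosomal RNA covariate (-1.35) and without single libraries (-1.24 to -1.01 with the tested genes unchanged). The replicate block gave -1.09 for Txnip (adjusted p = 0.684) and 0 called genes, with 987 at an unadjusted p under 0.05; Fth1-deleted 4, which has no partner number, adds nothing to its differences. The labels do not say whether the numbers pair the libraries. Deviations of same-numbered libraries from their group means correlated at 0.0058, 0.0876 and -0.0814. Of the 3 control libraries, 2 correlated best with another number. With so few libraries and the group means removed, these values cannot decide whether there was a pairing. The 8 calls over all genes became 0 without a filter (1504 at an unadjusted p under 0.05), 17 without a trend, 5 with limma-voom on the recovered reads (0 higher and 5 lower, against 4 and 4), 32 with the ribosomal RNA covariate, 17 with a Y-linked term, 4 among protein-coding genes and 219 over the 5 libraries with high ribosomal RNA, of which 1 is a control. Leaving out a library gave 0 to 4 calls with the tested genes unchanged. With the filter applied again, it gave 19 without control 1, 13 without control 2, 0 without control 3 and 1 without Fth1-deleted 3. The Txnip call then held without control 1 and was lost without control 2 (-1.01), control 3 (-1.04) and each of Fth1-deleted 1 to 4 (-1.10, -1.09, -1.11 and -1.09). Arrdc4 was below 0 and not called in all 29. Among the other 7 members the ribosomal RNA covariate moved Arrdc2 to 0.06, Arrdc3 to -0.55, Mlxip to -1.14, Mlx to 0.39 and Slc2a3 to -0.91. Mlx was at 3.49 with limma-voom, and over the 5 libraries with high ribosomal RNA Mlxip was at -0.83 and Arrdc3 at -0.23. The cause of these changes was not tested.

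Signs turned for 4 partner genes, none of them called. Txn2 was at -0.026 with quantile normalization, -0.043 with a fixed sum per library, -0.051 with the replicate block, -0.10 with the ribosomal RNA covariate and -0.066 over the 5 libraries with high ribosomal RNA. Without single libraries it ran from -0.063 to 0.12, and it was at -0.063, -0.022 and -0.051 without control 3, Fth1-deleted 1 and Fth1-deleted 4, with or without filtering again. Hk1 was at 0.33 with the ribosomal RNA covariate, 0.055 with the Y-linked term, 0.23 over the 5 libraries and -0.16 to 0.11 without single libraries. Prkab1 was at 0.21 with the covariate, 0.058 over the 5 libraries and -0.38 to 0.090 without single libraries, above 0 without control 1 (0.017) and Fth1-deleted 2 (0.090). Mxd4 ran from -0.73 to 0.050 without single libraries, above 0 without control 2 (0.050). Depth limits Mlx, with 0 to 423 reads per library.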

Other observations

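In the spelling searched, the carbohydrate response element found before the Txnip start was held by start windows of 15 genes in all. Of these, 9 besides Txnip were expressed highly enough to be tested. Of these 9, 5 had a log2 difference below 0 and 4 above, with a median of -0.01. Limma-trend called 0, as did limma-voom, and limma-trend gave 0 at an unadjusted p under 0.05. Over all tested genes 51.3% were below 0, limma-trend called 0.0574%, and 9.83% had an unadjusted p under 0.05. With so few genes, nothing is read from these counts. The differences ran from -1.16 for the unnamed gene model 9230116N13Rik (SE 0.70, adjusted p = 0.625) to 0.92 for Irak1bp1 (SE 0.71, adjusted p = 0.701), which encodes a protein that binds the kinase IRAK1. Between them were Nfkb2, an NF-kB subunit, at -0.41 (SE 0.33, adjusted p = 0.713), and Fnip1, a partner of folliculin in nutrient sensing, at -0.01 (SE 0.49, adjusted p = 0.996). These genes were picked after their values were seen.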
